A study of Danio rerio with 30 samples.

Results

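The genes described here are 10 zebrafish genes that act between the cell surface and the lysosome, namely dab2, lamp1a, lamp2, scarb2a, atp6ap1b, atp6v0d1, atp6v1aa, ctns, npc2.1 and cd63. They were found on the arrays as all spots whose annotated symbol is one of these names or an older synonym, which gave 16 of 23232 spots and 10 of the 9264 genes with a symbol. Lysosome-rich enterocytes, a cell type of the caudal zebrafish intestine, take up protein from the gut lumen by clathrin-mediated endocytosis and break it down in a large lysosome. Dab2 is the adaptor that links receptors of the LDL receptor family to the clathrin coat in these cells, together with the receptor pair cubilin and amnionless. Behind the coat, a proton pump (the V-ATPase, built of a cytosolic V1 sector and a membrane V0 sector) acidifies the lysosome, glycoproteins such as Lamp1 and Lamp2 line its membrane, and carriers export the products of digestion. These last components are found in nearly every cell type.

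The tissue was the intestine of wild-type adult male fish, about one year old and kept at 27 °C. It was cut from front to back into 7 segments, with S1 and S2 from the rostral intestinal bulb, S3 and S4 from the mid-intestine and S5 to S7 from the caudal intestine. Each biological replicate was a pool of the same segment from 10 fish, and there were 5 arrays for each of S1 to S4, 4 for S5 and 3 each for S6 and S7, 30 in all. Segment RNA carried the dye Cy5 and a reference RNA of whole wild-type fish, mixed at a male to female ratio of 9:1, carried Cy3, so a log2 ratio of 0 means the same level as in the whole fish. No array had the dyes exchanged, so any dye bias of a spot remains part of its value. The segments are whole tissue, so fewer cells of a type and less RNA per cell cannot be told apart.

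The 24 arrays of S1 to S5 were analysed together, and S6 and S7 are given apart. The Cy3 brightness, which comes from the reference, had a mean rank correlation of 0.909 between arrays of S1 to S5, but of 0.116 between them and the S6 and S7 arrays. Spots were also smaller on the S6 and S7 arrays (median 80 pixels) than on 17 arrays of S1 to S5 (392 to 460 pixels) and on the other 7 (120 pixels, 2 of S1, 4 of S2 and 1 of S3). Over S1 to S5, 10 of 10 measured enterocyte genes of the rostral and mid-intestine were at least 2-fold above the whole fish. These genes were chosen with earlier results of these data known. A mean over S1 to S5 also cannot check the label of a single segment. Of the 16 spots, 15 passed the filter on dim signals over S1 to S5. The dimmest lamp2 probe (probe 4) did not, and had a Cy5 signal above background on 3 of 24 arrays. Probes of a gene are numbered from the brightest down.

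Dab2 was the member that set S5 apart. Its transcript was far below the whole-fish level in S1 to S4 and close to that level in S5, a rise of 10.9-fold (95% interval 5.88 to 20.1). In S1 the log2 ratios were -2.96, -3.60, -3.96, -1.96 and -0.18. In S2 they were -3.71, -3.99, -5.40, -4.24 and -4.92. The S3 arrays gave -3.47, -3.96, -3.83, -4.37 and -4.60. These 3 segments lay well below the reference, apart from the last S1 array. In S4 the values were -3.24, -3.68, -4.08, -4.29 and -4.40, and the 4 S5 arrays (replicates 1, 2, 3 and 5) gave -0.45, 0.17, -0.01 and -0.91. S5 therefore lay above every array of S2, S3 and S4, while the fifth S1 array reached into its range. On that array the dab2 spot was not above background in either dye (52 pixels, Cy3 brightness 264 against 3449 to 22345 on the other 19 arrays of S1 to S4), so its ratio is not a measurement of dab2. Over those 19 arrays the highest ratio was -1.96, below the lowest S5 value of -0.91.

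**Figure D1:**
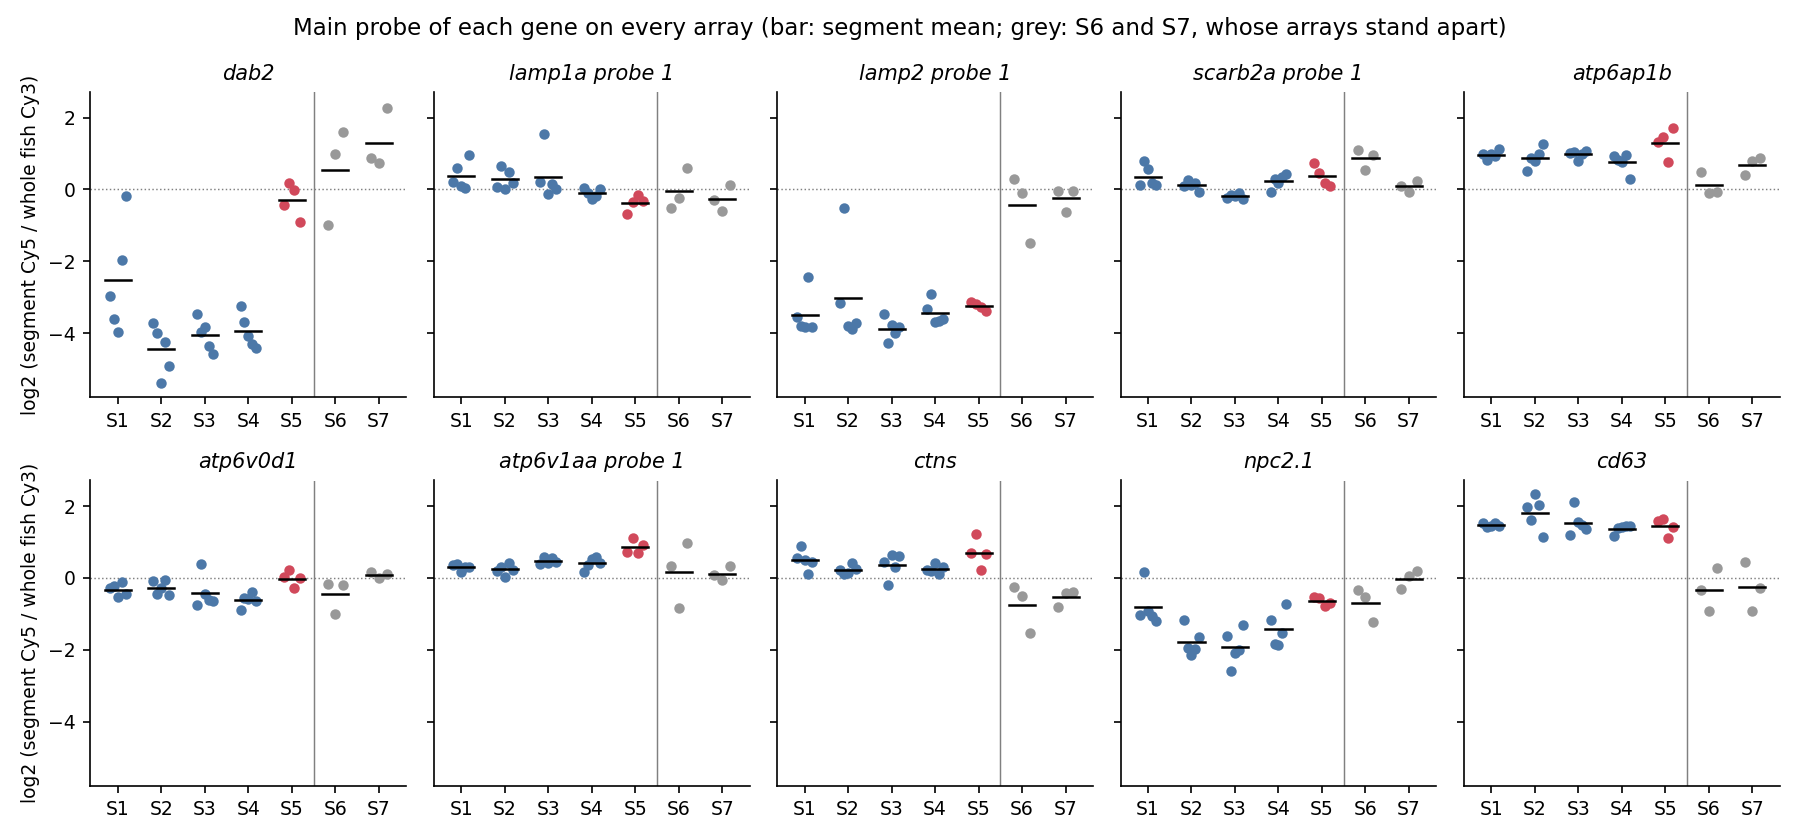
Log2 ratio of segment (Cy5) to whole fish (Cy3) for the main probe of each of the 10 genes, with 1 point for each array, a bar at the segment mean, S1 to S4 in blue, S5 in red and S6 and S7 in grey right of the line. The 4 S5 arrays of dab2 lie between -0.91 and 0.17 and above all blue points of dab2 but the unmeasured S1 spot at -0.18. In the other genes the red points lie close to the blue ones, and for atp6v1aa all 4 lie above them.

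The mean log2 ratio of dab2 was -2.53 ± 1.52 in S1 (SD, n = 5), or -3.12 ± 0.88 over the 4 arrays with a signal. It was -4.45 ± 0.69 in S2, -4.05 ± 0.45 in S3 and -3.94 ± 0.48 in S4 (SD, n = 5 each), and -0.30 ± 0.48 in S5 (SD, n = 4). The S5 mean exceeded the mean of S1 to S4 by 3.44 ± 0.43 (SE) on the log2 scale, with a Benjamini-Hochberg adjusted p of 1.01e-05 in limma. Of 19479 probes tested it had the seventh highest difference. It was the only one of the 10 genes to pass the F test of limma over S1 to S5 (Bonferroni-adjusted p = 0.00561), which 1.12% of all probes passed. Differences among S1 to S4 were not called for dab2 (adjusted p = 0.117). Without the fifth S1 array and any other spot above background in neither dye, a setting added after the data were seen, the S5 difference was 3.59 (adjusted p = 7.19e-08). With scale normalization it was 3.77 (adjusted p = 0.00909). In the value table of the authors the S5 difference was larger, at 5.15, but passed the threshold only narrowly (adjusted p = 0.0464).

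The change lay in the intestinal dye. Before normalization the Cy5 brightness of the dab2 spot was 284 to 5253 on the 19 measured arrays of S1 to S4 (median 948) and 9346 to 14038 on the 4 S5 arrays, with no overlap. The Cy3 brightness of the reference overlapped, at 3449 to 22345 against 7158 to 13538. With brightness levelled between arrays, the mean log2 Cy5 level rose from 9.55 in S1 to S4 to 13.6 in S5, and that of Cy3 went from 13.3 to 13.9. Cy5 was above background on 4 of 5 arrays in S1, 2 of 5 in S2 and 5 of 5 in S3. In S4 it was above on 4 of 5 and in S5 on 4 of 4. Some low ratios therefore rest on a Cy5 signal at background, namely -5.40, -4.24 and -3.71 in S2 and -4.40 in S4. The next lowest ratios, -4.92 in S2 and -4.60 in S3, had Cy5 above background.

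**Figure D2:**
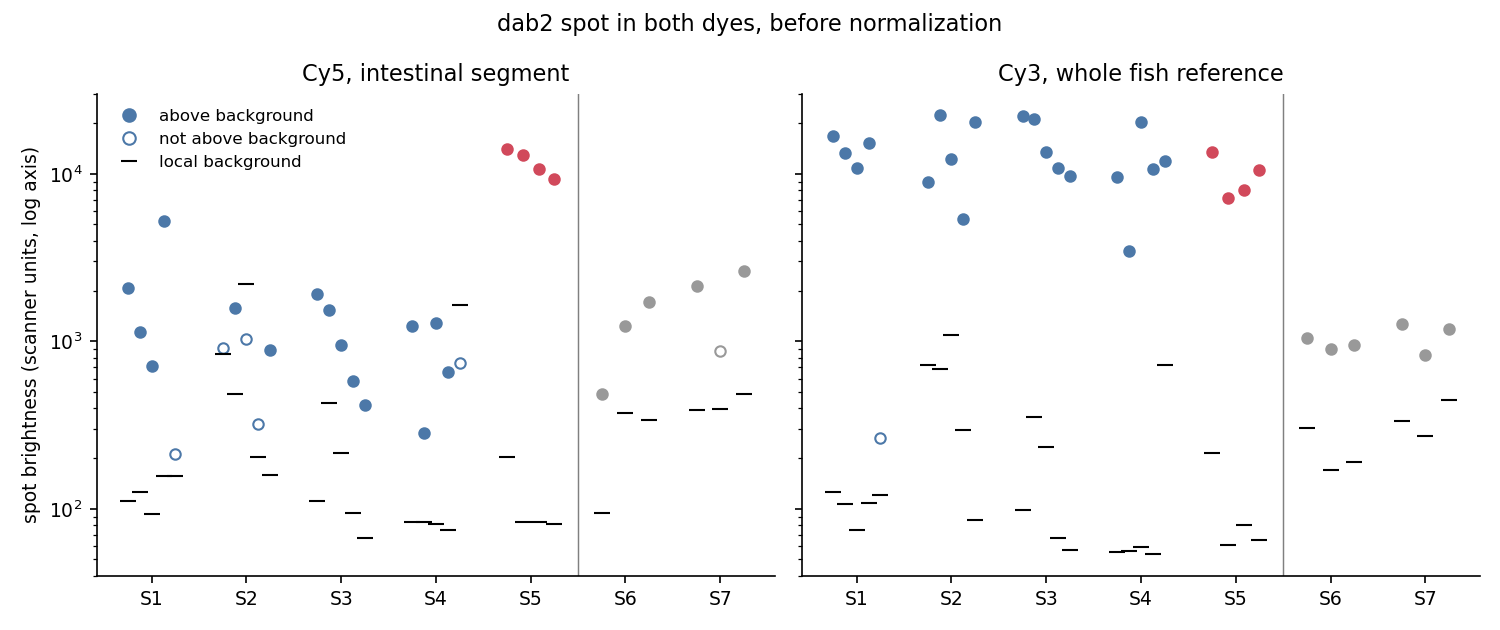
Brightness of the dab2 spot as scanned, on a log axis in scanner units, with Cy5 of the segment on the left and Cy3 of the whole-fish reference on the right, 1 point for each array, open points where the spot was not above background, and dashes for the local background. Cy5 of S5 (9346 to 14038) lies above every S1 to S4 array while Cy3 overlaps, and on the S6 and S7 arrays Cy3 is low (835 to 1272).

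In the genes of the lysosome membrane no such step was called. Lamp1a and Lamp2 are the main glycoproteins of the lysosome membrane, Scarb2 carries glucocerebrosidase to lysosomes in mammals, Ctns exports cystine, and Cd63 is a tetraspanin of late endosomes and lysosomes. None of their 9 tested probes was called in S5. Of all 19479 probes, 2.71% were called higher in S5 and 2.82% lower (5.53% in all, 528 and 549 probes, or 469 and 192 with median centring in place of loess). For the brighter lamp1a probe the ratios in S1 to S4 ran from -0.27 to 1.55 (median 0.09), and in S5 they were -0.68, -0.35, -0.15 and -0.33. Of these, 3 lay below all S1 to S4 arrays (all 4 did so for 0.467% of all probes), and the difference of -0.60 ± 0.21 (SE) missed the threshold (adjusted p = 0.0953). It passed on arrays with larger spots (-0.46, adjusted p = 0.0388) and without the second S3 array (adjusted p = 0.0246), whose value was 1.55. The dimmer lamp1a probe differed the other way by 0.31 ± 0.15 (adjusted p = 0.248), and the ratios of both probes had a correlation of -0.15 over 24 arrays, so the array gives no single direction for lamp1a.

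The lamp2 probes disagreed in level but not in the lack of a call. Probes 1 and 2 were at a mean of -3.41 and -3.37 over S1 to S5, 10.7-fold and 10.3-fold below the whole fish, while probe 3 was at 0.13. Probe 3 was dim, with Cy5 above background on 8 of 24 arrays, and Cy5 of probe 2 was above background on 5 of 24 although its Cy3 was above on 24. The level of lamp2 relative to the whole fish is therefore not settled by these spots. In S5 the differences were 0.21 ± 0.38, 0.29 ± 0.16 and -0.26 ± 0.17 (SE), with adjusted p of 0.834, 0.335 and 0.463 and 95% intervals that together ran from -0.61 to 0.98.

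Both scarb2a probes traced the same shallow dip, with r = 0.79 over the 24 arrays. Probe 2 had segment means of 0.32, -0.09, -0.52, 0.05 and 0.38 from S1 to S5, and probe 1 had 0.35, 0.11, -0.20, 0.23 and 0.37. The lowest mean was in S3 for both. The difference among S1 to S4 passed for probe 2 (adjusted p = 0.0132) and not for probe 1 (adjusted p = 0.126), where 2.43% of all probes passed, and probe 2 was the only member probe called in that test. In S5 the differences were 0.24 ± 0.12 and 0.44 ± 0.13 (adjusted p = 0.286 and 0.0544), and that of probe 2 passed with median centring (adjusted p = 0.0307), without background correction (adjusted p = 0.0404) and without any of 5 single arrays.

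Ctns ranged from -0.19 to 0.89 in S1 to S4 (median 0.30) and gave 0.69, 1.22, 0.21 and 0.66 in S5. The groups overlapped, and the difference of 0.36 ± 0.15 was not called (adjusted p = 0.176). Cd63 was the member furthest above the whole fish, at a mean log2 ratio of 1.52 over S1 to S5, or 2.88-fold. Its segment means stayed between 1.37 and 1.81, and S5 differed by -0.11 ± 0.15 (adjusted p = 0.772, 95% interval -0.43 to 0.21).

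Npc2 is the soluble lysosomal protein that picks up cholesterol and hands it to the membrane protein Npc1. The npc2.1 ratios were lowest in the middle of the tract, with means of -0.81 ± 0.56, -1.77 ± 0.39, -1.92 ± 0.48 and -1.43 ± 0.49 in S1 to S4 (SD, n = 5 each) and -0.64 ± 0.11 in S5 (SD, n = 4). The S5 arrays gave -0.53, -0.57, -0.78 and -0.69. Single S1 to S4 arrays ran from -2.58 to 0.18 (median -1.58), so the groups overlapped. The S5 difference was 0.85 ± 0.23 (adjusted p = 0.0304), or 1.80-fold, and its call was lost on arrays with larger spots (0.60, adjusted p = 0.172), with scale normalization (0.96, adjusted p = 0.0559) and without any 1 of the 4 S5 arrays (0.81 to 0.89, adjusted p from 0.0594 to 0.112). Differences among S1 to S4 were not called (adjusted p = 0.0658).

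Of the members, 3 belong to the proton pump. Atp6v1aa is the catalytic A subunit of the V1 sector, Atp6v0d1 the d subunit of the V0 sector that joins both sectors, and Atp6ap1b an accessory subunit of the pump. The brighter atp6v1aa probe ranged from 0.02 to 0.58 in S1 to S4 (median 0.37) and gave 0.73, 1.12, 0.69 and 0.90 in S5. All 4 S5 arrays lay above all 20 others, as they did for 0.662% of all probes. The rise was 0.51 ± 0.09 on the log2 scale, or 1.42-fold (adjusted p = 0.00073), and its call was lost when all 30 arrays shared the estimate of the spread (adjusted p = 0.134). The second atp6v1aa probe, deposited under the name atp6v1a and possibly shared with the paralog atp6v1ab, differed by 0.19 ± 0.14 (adjusted p = 0.538) and had 1 S5 array at -0.50 with the others at 0.41 to 0.52.

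Atp6v0d1 ranged from -0.88 to 0.39 in S1 to S4 (median -0.46) and gave 0.01, 0.22, -0.30 and -0.01 in S5. Its difference of 0.39 ± 0.15 was not called (adjusted p = 0.135) and was called without the second S3 array (adjusted p = 0.0113), the array at 0.39. Atp6ap1b ranged from 0.29 to 1.25 in S1 to S4 (median 0.95) and gave 1.31, 1.45, 0.75 and 1.71 in S5. Of the 4 S5 arrays, 3 lay above all others, but the difference of 0.41 ± 0.14 was not called (adjusted p = 0.0874). Without the third S5 array, the one at 0.75, it was 0.60 (adjusted p = 0.00975). Over S1 to S5 its mean ratio was 0.98, just under the 2-fold line.

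**Figure D3:**
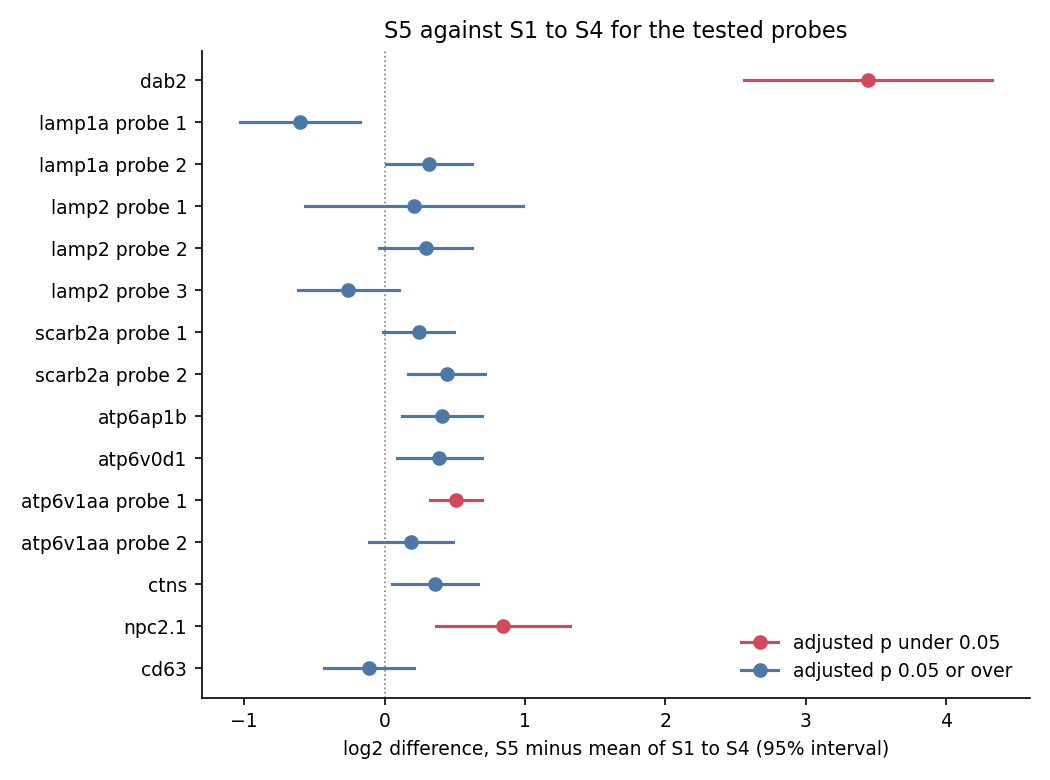
Difference of log2 ratios between S5 (4 arrays) and the mean of S1 to S4 (20 arrays) for the 15 tested probes, with the 95% interval of the limma fit and red marks where the adjusted p was under 0.05. The dab2 interval (2.56 to 4.33) lies beyond that of every other probe, whose differences run from -0.60 to 0.85.

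Counted by gene on the main probe, 3 of the 10 genes were higher in S5 (dab2, atp6v1aa and npc2.1) and 0 were lower, where 3.09% of 8759 genes with a main probe were higher and 3.72% lower. At an unadjusted p under 0.05 by limma, 6 were higher (atp6ap1b, atp6v0d1 and ctns in addition) and 1 (lamp1a) was lower, where 8.08% and 13% of those 8759 genes were. The members' median difference was 0.37, and that of all tested probes was -0.04. By the mean of the main probe over S1 to S5, dab2 (-3.05), lamp2 (-3.41) and npc2.1 (-1.32) were at least 2-fold below the whole fish. Cd63 (1.52) was at least 2-fold above it, where 13% of all probes passed below and 8.27% above. The other 6 genes had mean ratios from -0.33 to 0.98. The dab2 mean takes in S5, which was at -0.30, and the lamp2 level is not settled, with probe 3 at 0.13.

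The difference between the adaptor and the other genes was tested directly. For each array the ratio of another member's main probe was subtracted from that of dab2, and the 4 S5 arrays were set against the 20 of S1 to S4 by a two-sided exact permutation test over all 10626 splits, with adjustment over the 9 pairs. The S5 difference of dab2 exceeded that of every other member. The excess on the log2 scale was 4.05 over lamp1a, 3.23 over lamp2, 3.20 over scarb2a, 3.08 over ctns, 2.60 over npc2.1 and 3.55 over cd63. Against the pump genes it was 3.03 over atp6ap1b, 3.05 over atp6v0d1 and 2.93 over atp6v1aa. The adjusted p of these exact tests lay between 0.000565 and 0.000659. The smallest excess was that over npc2.1, the member with the next highest difference. All 4 S5 arrays lay above all 20 others for lamp1a, and 0 to 2 of them did in the other pairs, with the unmeasured S1 spot of dab2 included. Leaving out any 1 array kept every pair under the threshold (excess 2.45 to 4.27, highest adjusted p of the exact tests 0.00339).

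Over single arrays the other members followed dab2 loosely. The correlation with dab2 over the 24 arrays, which share the reference and the step to S5, was highest for atp6v1aa probe 1 (r = 0.62) and npc2.1 (0.55), and lowest for lamp2 probe 3 (-0.34), cd63 (-0.24) and lamp1a probe 1 (-0.22). Without the S1 array whose dab2 spot was not measured, r was 0.72 and 0.58 for the first pair and -0.34, -0.23 and -0.43 for the others over 23 arrays. Among 10663 other tested probes with a symbol, the 8 most like dab2 had r from 0.83 to 0.90. They were myg1, a nuclease, atp6v1h and atp6v1e1, the H and E subunits of the V1 sector, lcmt1, a methyltransferase of protein phosphatase 2A, sub1a, a transcription cofactor, ap3s2, a subunit of the AP-3 adaptor, elovl1b, a fatty acid elongase, and ctsz, cathepsin Z. Their S5 differences, which a likeness to dab2 largely fixes, ran from 0.49 for myg1 to 2.34 for sub1a on the log2 scale. The order rests partly on the unmeasured S1 spot. Over the 23 other arrays ap3s2, ctsz and myg1 stayed among the 8 most like dab2, with ap3s2 first (r = 0.92). The other 5 of these genes did not (r = 0.81 to 0.89). Their places went to tpte, slc10a2, fuca1.1, lgmn and slc35f6 (r = 0.89 to 0.90). Of the 8 genes over 24 arrays only ctsz had a second tested probe, which differed by 1.73.

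In the rest of the endocytic pathway, calls in S5 went both ways. Of 44 listed genes of protein endocytosis 23 were measured, without cubn, amn, lrp2a and lrp2b, the receptors that Dab2 serves. In S5, 1 was higher (4.35%) and 2 were lower (8.7%), with a median difference of 0.10, where 3.09% and 3.72% of all genes with a main probe were. The gene called higher was lrpap1, a chaperone of LDL receptor family proteins, at 0.87 ± 0.15 (adjusted p = 0.000583), but its Cy5 was above background on 4 of 20 arrays of S1 to S4 and on 0 of 4 of S5. The clathrin adaptor epn1a was lower by -0.65 ± 0.14 (adjusted p = 0.00481) and the recycling GTPase rab11ba by -0.46 ± 0.11 (adjusted p = 0.0162). Both calls were lost with median centring (adjusted p = 0.214 and 0.386), and that of rab11ba also without the first or the last S5 array (adjusted p = 0.0809 and 0.0883). Rab11ba also differed among S1 to S4 (adjusted p = 0.0437), with a mean of -0.46 in S2 beside -0.56 in S5. Its Cy5 was above background on 6 of 20 arrays of S1 to S4 and on 4 of 4 of S5.

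In the proton pump list, 8 of 16 measured genes were higher in S5 and 0 lower. Of all genes with a main probe, 3.09% were higher and 3.72% lower. The list had a median of 0.44. By sector, 7 of 9 V1 genes, 0 of 5 V0 genes and 1 of 2 accessory genes were called higher. Their median differences were 0.51, 0.36 and 0.43. Of the 13 that are not members, 7 were higher. The highest was atp6v1f, the F subunit, at 3.32 ± 0.48 (adjusted p = 8.34e-05), which ran from -5.29 to -1.66 in S1 to S4 and from -1.77 to 0.26 in S5. Its size was close to that of dab2 and 3 of its 4 S5 arrays lay above all others. The C subunit gene atp6v1c1b differed by 1.12 ± 0.12 (adjusted p = 1.46e-06), with Cy5 above background on 3 of 20 arrays and 3 of 4. Atp6v1h, the H subunit, differed by 0.73 ± 0.12 (adjusted p = 0.000221), and all 4 S5 arrays of both these genes lay above the others. Atp6v1g1, the G subunit, differed by 0.55 ± 0.13 (adjusted p = 0.0108). Besides the main probes of the list, the second probe of tcirg1b, a subunit of the V0 sector, was called at 0.47 (adjusted p = 0.0421). So was the second probe of atp6v1g1 at 0.42 (adjusted p = 0.0128). Atp6v1e1, the E subunit gene named above, was outside the list and was called at 0.65 ± 0.10 (adjusted p = 0.000176). The listed C and E subunit genes atp6v1c1a and atp6v1e1a were not called (-0.02 and -0.03, adjusted p = 0.955 and 0.931). The count for the list was 3 when all 30 arrays shared the spread and 4 without the second S5 array.

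The list of lysosome membrane and lipid egress genes held 6 members (lamp1a, lamp2, scarb2a, ctns, npc2.1 and cd63) among its 22 measured genes. Of the 22, 3 (13.6%) were higher and 0 lower, with a median of 0.15, where 3.09% and 3.72% of all genes with a main probe were. They were npc2.1 and, of the 16 genes that are not members, glmp, a lysosomal membrane glycoprotein (1.26 ± 0.28, adjusted p = 0.00782), and ostm1, the partner of the lysosomal chloride exchanger (0.61 ± 0.17, adjusted p = 0.0294). Without the second S5 array 0 of the 22 were called higher. Besides the main probes, 1 probe of tmem106bb, a gene of this list with 8 tested probes, was called lower (-0.68, adjusted p = 0.00569). The other tmem106bb probes were not called, and Cy5 of its main probe was saturated on 22 of 24 arrays.

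Many enzymes inside the lysosome were higher in S5 as well. Of 28 measured hydrolase genes, 15 were higher in S5 and 0 lower, where 3.09% and 3.72% of all genes with a main probe were. The list had a median of 0.52. The 4 highest were ctsl.1, a cathepsin L, at 4.32 ± 0.40, lgmn, legumain, at 2.52 ± 0.21, fuca1.1, a fucosidase, at 1.83 ± 0.14, and ctsh, cathepsin H, at 1.73 ± 0.19, with adjusted p from 1.09e-08 to 1.44e-06. Every S5 array lay above every S1 to S4 array for each of these 4. Cy5 of ctsl.1 and lgmn was saturated on 2 of 24 arrays each. Probes of a gene did not always agree. The main probes of dpp7 (1.29) and psap (1.04) were called, but their second probes were not (0.12 and 0.09, adjusted p = 0.706 and 0.878). The second probe of ctsz was called like its main probe, and that of hexa was called (0.63, adjusted p = 0.00221) where its main probe was not. Counts for this list stayed between 11 and 16 under the other processing settings. These lists were put together with results of these data known, so their counts describe the genes and carry no test of the lists.

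**Figure D4:**
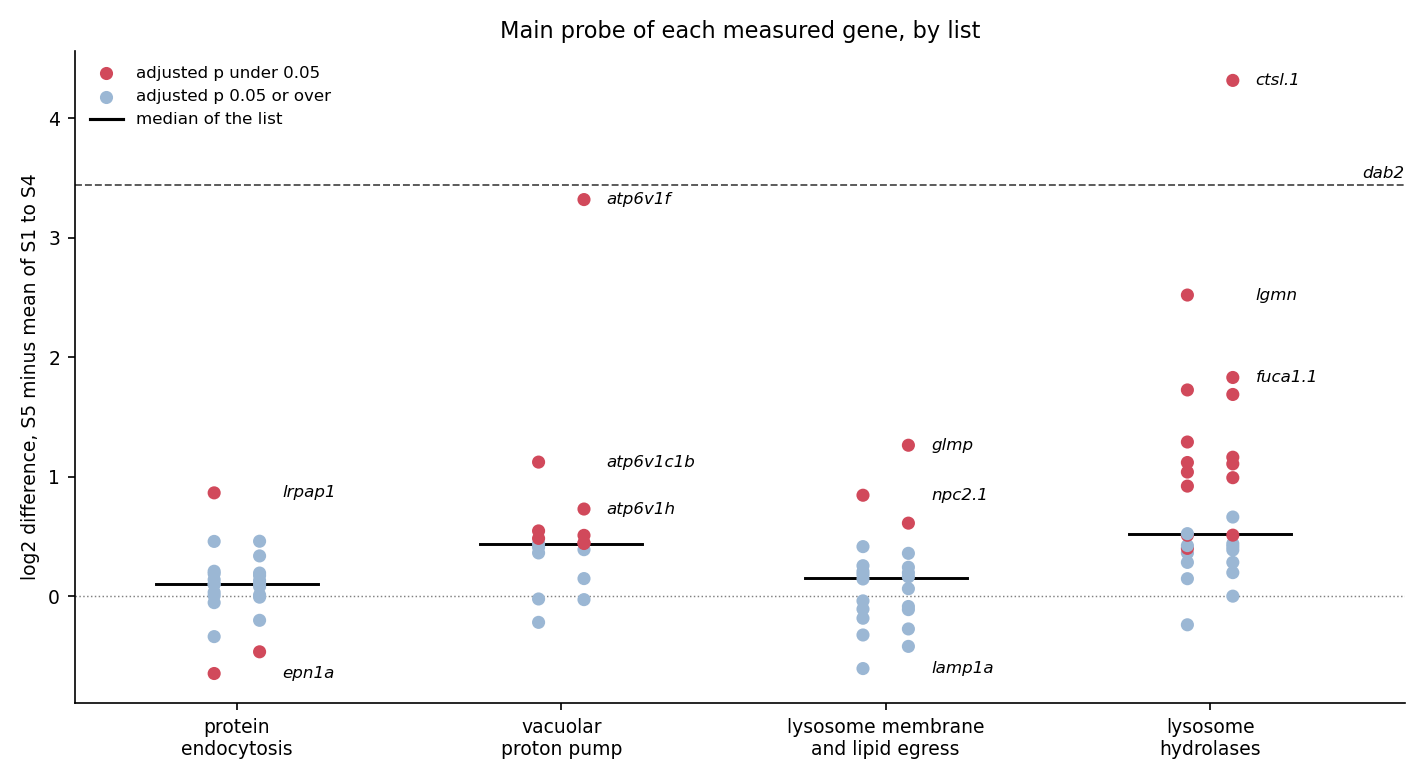
Difference of log2 ratios between S5 and the mean of S1 to S4 for the main probe of each measured gene in 4 lists, with called genes in red, others in blue, a bar at the median of each list, and a dashed line at the dab2 value of 3.44. Of the 4 medians (0.10, 0.44, 0.15 and 0.52), that of the hydrolases is highest, and ctsl.1 alone lies above dab2.

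Markers of other cells were read beside these values, where 3.09% of all genes with a main probe were higher in S5 and 3.72% lower. Lysosome-rich and ileal enterocyte genes were measured for 4 of 8 (fabp6, slc10a2, ctsl.1 and lgmn, the last 2 also hydrolases), and all 4 were higher in S5 with a median of 4.72. Of 10 enterocyte genes of the rostral and mid-intestine, 4 were lower and 0 higher, with a median of -0.69, and Cy5 was saturated on 20 to 23 of 24 arrays for 5 of the 10, where saturation limits the size of a difference. Macrophages also hold many lysosomes. Of 13 measured macrophage genes, 0 were called higher and 1 lower (mfap4.1), with a median difference of 0.19 and 8 of the 13 differences above 0. Their mean log2 ratio ran from -0.22 to 0.39 over the arrays of S1 to S4 and from -0.32 to 0.70 over those of S5. Exocrine pancreas and liver genes were higher for 5 of 10, all pancreatic, with Cy5 saturated on at least 22 of 24 arrays. Of the 10, 8 also differed among S1 to S4. Mean ratios in S1, S4 and S5 were -0.08, 2.03 and 2.12 for ctrb.1 and -0.13, 1.57 and 1.54 for prss59.1. Over the 10 genes the mean log2 ratio ran from -0.98 to 0.55 in S1 to S4 and from -0.06 to 0.63 in S5. The part of these genes in the result was not tested. Of 4 smooth muscle genes 1 was lower, and of 5 blood genes 0 changed.

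Against the mean of S1 to S5, dab2 and lamp2 probes 1 and 2 had far higher ratios in S6 and S7 and cd63 far lower ones. However, array type and segment cannot be told apart. Dab2 gave -0.996, 0.99 and 1.60 in S6 and 0.86, 0.74 and 2.25 in S7, which is 3.59 and 4.34 above S1 to S5 (adjusted p = 9.99e-07 and 4.02e-08). Of all probes, 51.3% were called in S6 (26.1% higher and 25.2% lower) and 52.4% in S7 (26.8% higher and 25.6% lower). For dab2 the levelled Cy5 was 10.1 in S1 to S5, 10.2 in S6 and 10.9 in S7, while Cy3 of the reference went from 13.2 to 9.69 and 9.66, so these ratios were higher mainly with a lower Cy3. Lamp2 probe 1 also had a lower Cy3, from 13.8 to 9.30 and 9.42, and its ratio was higher by 2.98 and 3.17. Its Cy5 went down as well, from 10.4 to 8.87 and 9.17, and was above background on 1 of 3 arrays in each of S6 and S7. Lamp2 probe 4 was called the other way (-0.96 and -1.12, adjusted p = 0.000204 and 2.67e-05), and probe 3 was called lower in S7 alone (-0.09 and -0.64, adjusted p = 0.777 and 0.0285). The ratio of cd63 was lower by -1.86 and -1.78 and that of ctns by -1.17 and -0.95 (adjusted p at most 0.000243). For ctns the levelled Cy5 was higher, at 9.51 in S1 to S5, 11.3 in S6 and 10.2 in S7. Its Cy3 rose more, from 9.10 to 12.1 and 10.7. Cy5 of cd63 was above background on 1 of 3 arrays in S6 and 0 of 3 in S7, and its Cy3 on 1 and 2, so the size of its difference rests on spots at background. Npc2.1 was higher by 0.63 and 1.29 (adjusted p = 0.0412 and 0.000114), and the call in S6 was lost without its replicate 2 or 3 (adjusted p = 0.228 and 0.152). In the value table of the authors neither npc2.1 call held (adjusted p = 0.688 and 0.0749), and with median centring that in S6 was lost (adjusted p = 0.504). The scarb2a probes went opposite ways in S6, at 0.70 for probe 1 and -0.97 for probe 2 (adjusted p = 0.000396 and 0.000161), and neither was called in S7. Atp6ap1b was called in S6 (-0.87, adjusted p = 0.000111) and not in S7 (-0.29, adjusted p = 0.148). On their main probes lamp1a, atp6v0d1 and atp6v1aa were called in neither segment. In the value table of the authors lamp1a was called in both (-1.36 and -1.26, adjusted p = 0.00257 and 0.00467), as was atp6v1aa (-0.66 and -0.64, adjusted p = 0.0118 and 0.0133), and atp6v0d1 was called in S6 (-0.71, adjusted p = 0.025). The second lamp1a probe was called higher in S6 (0.74, adjusted p = 0.00353).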

How the data were processed

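Intensity values were deposited by the authors as scanned, for each spot and its local background in both dyes of in-house spotted 65-base oligonucleotide arrays. Spot area, in pixels, came from the same files. The log2 values of the deposited value file, made by the authors from the ratio of mean intensities and a constant per array, served as an alternative only. Scanner software and the genome build are not given in the sources used here.

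Background was corrected by normexp (offset 50) and log2 ratios were normalized by loess within each array in limma 3.58.1 under R 4.3.3 (files were read with the package data.table, version 1.17.8), with 245 control spots (printed at least 10 times) given no weight. Dim probes were set aside, keeping those with a spot median over the local background median plus 2 SD, in 1 of the dyes, on 3 or more arrays of any segment (19479 probes over S1 to S5, 21395 over 30 arrays). Symbols were updated to the gene names of GRCz12tu (3568 current, 8000 through a synonym, 156 kept, 11508 spots without a symbol). A gene's main probe is its brightest tested one.

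The contrasts S5 minus the mean of S1 to S4, the F test among S1 to S4, S1 to S5 against the whole fish (2-fold) and S6 and S7 against S1 to S5 used limma with Benjamini-Hochberg adjustment over all tested probes at 0.05, and the F test over S1 to S5 a Bonferroni p under 0.1. Brightness per dye was levelled between arrays by Aquantile, which leaves ratios as they are. The code was tested on simulated data. The number of arrays limits the precision.

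Named besides the members are, per list, up to 4 genes with the largest called S5 difference and any called the other way. The 8 probes most correlated with dab2 are also named, over 24 arrays and without the unmeasured S1 spot. Genes and lists were chosen with earlier results of these data known. The settings also tried were uncorrected background, median centring, scaling between arrays, Aquantile, the deposited value table, no dim filter, the replicate number as a block, a shared spread over 30 arrays, a plain one-way ANOVA and leaving out each array. Larger spots only, leaving out spots above background in neither dye, and correlations with dab2 without the S1 array that did not measure it were added after the data were seen.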

Additional observations from a re-analysis of the deposited data

Results flagged for a closer look

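Of 75 groups (15 tested probes in 5 segments), 10 held an array whose log2 ratio stood apart from the others by Dixon's criterion, which chance alone meets in about 1 of 20 groups. Both lamp2 probes with low ratios were high on the fourth S1 array, at -2.44 for probe 1 (others -3.83 to -3.54) and -2.71 for probe 2 (others -3.62 to -3.39), and dab2 was also high there at -1.96. Lamp2 probe 1 was at -0.51 on the second S2 array (others -3.88 to -3.15). The second S3 array held 2 of the 10, with lamp1a probe 1 at 1.55 (others -0.14 to 0.21) and atp6v0d1 at 0.39 (others -0.76 to -0.46). Npc2.1 was at 0.18 on the second S1 array (others -1.20 to -0.93). In S4, atp6ap1b was at 0.29 on replicate 5 (others 0.77 to 0.96) and cd63 at 1.17 on replicate 1 (others 1.39 to 1.45). In S5, lamp1a probe 2 was at -0.29 on replicate 1 (others 0.50 to 0.63) and atp6v1aa probe 2 at -0.50 on replicate 3 (others 0.41 to 0.52).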

How the results depend on the processing

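The S5 rise of dab2 passed in every run (3.34 to 5.15, adjusted p up to 0.0464, or 3.29 to 3.65 without 1 array). So did all 9 pair tests. Probes higher in S5 (528) numbered 306 with all 30 arrays in the fit and 304 to 651 leaving out 1 array (304 without S5 replicate 2). Probes lower in S5 (549) numbered 192 with median centring, 323 in the authors' table, 213 with 30 arrays and 286 to 701 leaving out 1 array (286 without S5 replicate 2). The F test over S1 to S5 (219) gave 142 with scale normalization and 105 on larger spots, and a plain one-way ANOVA on the same values 157. That among S1 to S4 (473) gave 280 with 30 arrays, 257 on larger spots and 339 to 856 leaving out 1 array (856 without S2 replicate 5). The number at least 2-fold below the whole fish (2529) was 4622 in the authors' table, and of those called in S6 and S7, 3828 of 9256 and 3349 of 9415 were higher (5593 of 10975 and 5744 of 11221). The causes were not tested.

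Without 1 array the S5 differences of some members passed the threshold, namely lamp1a probe 2 without S5 replicate 1 (0.53, adjusted p = 0.0246) and scarb2a probe 2 without any of S1 replicate 2, S2 replicates 2 and 5, S3 replicate 3 and S5 replicate 3 (0.45 to 0.56, adjusted p from 0.0268 to 0.0477). In the pathway lists, calls of ostm1 were lost without S5 replicate 2 or 5 (adjusted p = 0.235 and 0.0879), and of atp6v1g1, glmp and lcmt1 without S5 replicate 2 (0.0929, 0.0747 and 0.0620). Myg1 was lost without S5 replicate 1 or 2 (0.0506 and 0.0685). With all 30 arrays in the fit the calls of rab11ba, epn1a, ostm1, atp6v1g1, myg1, lcmt1 and atp6v1e1 were lost (adjusted p from 0.0528 to 0.163), and in the authors' values those of lrpap1, rab11ba, atp6v1g1, glmp, lcmt1 and ap3s2 (0.0537 to 0.528). In S7, atp6v0d1 passed without S3 replicate 2 (0.46, adjusted p = 0.0122), S5 replicate 2 or any S6 array (0.0317 to 0.0484). Atp6v1aa passed without S6 replicate 5 in S6 (adjusted p = 0.00284) and without S6 replicate 3 in S7 (-0.34, adjusted p = 0.0239).

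Of the differences whose sign changed, only that of scarb2a from the whole fish was called. Against S1 to S5, atp6v0d1 was at 0.16 in S6 without background correction and -0.15 in S7 in the authors' table, and with median centring scarb2a was at 0.13 and atp6ap1b at 0.16 in S7. Leaving out 1 array, the S6 values ran from -0.48 to 0.068 for lamp1a (highest without S6 replicate 2), from -0.27 to 0.14 for atp6v0d1 and from -0.70 to 0.21 for atp6v1aa (highest without S6 replicate 3 for both). Against the whole fish, scarb2a (0.17, adjusted p = 0.00125) was at -0.037 with median centring, and lamp1a at -0.0096 on larger spots.

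The sources do not state whether arrays of the same replicate number share fish or a day, and the main fits did not pair them. Same-numbered arrays of different segments had residual correlations from -0.63 to 0.526 (mean 0.0555), with 16 of 46 over 0.1. For arrays of other numbers the mean was -0.0146, with 40 of 184 over 0.1. Of 24 arrays, 9 correlated best with their own number. These values do not decide whether the numbers pair the arrays. With the number as a block, 530 probes were higher and 544 lower in S5, 205 and 450 passed the F tests over S1 to S5 and S1 to S4, and 10794 and 11088 were called in S6 and S7. The dab2 difference was 3.45 under the block, and atp6v0d1 passed in S7 (0.46, adjusted p = 0.0362).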
